A study of Mus musculus with 34 samples.

Results

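The nuclear genes of oxidative phosphorylation complexes II to V were followed here through 8 groups of mouse skeletal muscle. A row of the count table was taken as a member if its Ensembl ID is a protein-coding gene of GENCODE M21 named Sdha, Sdhb, Sdhc, Sdhd, Cyc1 or Cycs, or with a symbol that begins with Uqcr, Cox4 to Cox8 or Atp5. The rule uses names only, and it took 49 of the 46071 genes in the table: 4 of complex II, 9 of complex III, 18 of complex IV, 17 of complex V and cytochrome c. It left out 7 rows of pseudogenes. A filter on low counts kept 45 members, and these are the tested members below.

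Complexes II, III and IV pass electrons from succinate to oxygen in the inner mitochondrial membrane. Complexes III and IV pump protons as they do so, cytochrome c carries electrons from complex III to complex IV, and complex V lets the protons back and makes ATP. Muscle fibers hold large amounts of these complexes, and slow and fast oxidative fibers more than fast glycolytic ones. Complex II is coded by nuclear genes alone, whereas a few core subunits of complexes III, IV and V are coded by mitochondrial DNA. Several complex IV subunits exist as a muscle isoform and a common isoform, which are separate genes.

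RNA came from powdered quadriceps and gastrocnemius, mixed, of male mice on a mixed C57Blk6, C57Blk6J and 129 background, and was sequenced in 34 libraries. MIRKO mice (n = 4) lack the insulin receptor in muscle, against IRlox mice (n = 3). MIGF1RKO mice (n = 5) lack the IGF-1 receptor, against IGFRlox mice (n = 4). MIGIRKO mice (n = 6) lack both receptors, against IRIGFRlox mice (n = 3). QKO mice (n = 7) lack both receptors and also 3 FoxO genes, Foxo1, Foxo3 and Foxo4, which code for transcription factors, against Qlox mice (n = 2). The 4 reference groups carry the floxed alleles without Cre, and each knockout was bred in a colony of its own with its floxed littermates. MIRKO, MIGIRKO and QKO were made with Acta1-Cre, a recombinase driven by the promoter of skeletal muscle actin, so other cells of the muscle keep the genes. The labels give no ages. They give the Nnt genotype as heterozygous in MIGIRKO and IRIGFRlox and as mixed in the other groups. One library is taken as 1 mouse. No source used here ties the libraries of a group to separate litters, so p-values measure the spread between these libraries.

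Total counts ran from 1499025 (QKO 5) to 7581198 per library, and the mean scaling factor of a group from 0.876 in IRIGFRlox to 1.23 in MIGIRKO. Insr, the insulin receptor gene, was lower in MIRKO (log2 change -1.83 ± 0.17 SE), MIGIRKO (-1.68 ± 0.15) and QKO (-1.99 ± 0.16), and Foxo1 and Foxo4 were lower in QKO. Igf1r passed the test in QKO (-1.09, adjusted p = 0.027) but not in MIGF1RKO (-0.75, adjusted p = 0.10) or MIGIRKO (0.00, adjusted p = 0.99), and Foxo3 did not pass in QKO (0.29, adjusted p = 0.71), so the counts of these genes do not check those labels. Across genes, the nearest library was looked up for 2 libraries, and each lay closest to one of another genotype than its label gives. The other libraries were not looked up, so how unusual this is was not tested. The one labelled MIRKO 4 had its best correlation with MIGIRKO 3 (r = 0.981), and the best match of the one labelled MIGIRKO 6 was MIRKO 3 (r = 0.973), so counts that rest on these groups are also given without both libraries. The titles number the libraries, and these numbers fall into 6 runs, each with 5 or 6 libraries of mixed genotype. The numbers within a run are consecutive, except that run 3 skips 1 number. Runs 4 and 5 hold both Qlox libraries, 2 of 4 MIRKO, 2 of 5 MIGF1RKO, 2 of 4 IGFRlox, 2 of 6 MIGIRKO and 2 of 7 QKO libraries, and none of IRlox or IRIGFRlox. Many members stood apart in runs 4 and 5, and this is described before the comparisons because it bears on most of them.

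Levels are CPM on library totals multiplied by a TMM scaling factor, and statements on overlap between groups refer to these scaled levels unless plain totals are named. To compare genes, CPM was divided by the length of each gene's principal transcript in kilobases. Over the 12 floxed libraries, Atp5b, the catalytic beta subunit of ATP synthase, had the highest level per length, 1677 ± 184 CPM per kb (SD, n = 12). Atp5g3, which codes for the c subunit of the proton-driven ring, followed at 982 ± 173 CPM per kb, and Atp5c1, the gamma shaft of the same enzyme, at 912 ± 96.1 CPM per kb, a pair whose spreads overlap. Atp5a1, the alpha subunit, had 770 ± 126 CPM per kb, and Cox6a2, the muscle isoform of a complex IV subunit, 620 ± 164 CPM per kb. Sdha, the flavoprotein of complex II, had 389 ± 71.7 CPM per kb, and Cyc1, the cytochrome c1 of complex III, 245 ± 45.6 CPM per kb. At the other end, Cox8a had 10.2 ± 4.61 CPM per kb and Cox4i2, the oxygen-regulated isoform of subunit 4, 2.55 ± 0.890 CPM per kb.

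The 4 members that failed the filter had next to no counts. Cox8c had 0 counts in all 34 libraries together, Cox7b2 had 6, Cox6b2 had 36 and Uqcrc1 had 11. Cox6b2, Cox7b2 and Cox8c are isoforms known from testis and a few other tissues. Uqcrc1 codes for core protein 1 of complex III, which stands beside core protein 2 in every complex, and Uqcrc2 had 335 to 1664 CPM in these libraries. Nothing in the files says why its row is almost empty, so the 11 counts are not read as its level. Some tested members share sequence with other genes: 38.3% of the 50-base words in Atp5g2 transcripts, 25.9% in Cycs, 25.4% in Uqcrb and 22.1% in Cox7c also occur in transcripts of other genes of the annotation. How the counting treated such reads is not given in the sources used here, and values of these 4 genes are uncertain to that extent.

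Many members differed among the library runs. Of the 45 tested members, 30 (66.7%) differed among the 6 runs at an adjusted p under 0.05 in edgeR's quasi-likelihood test with group as a covariate, against 10.6% of all genes tested. The median log2 difference of the members between runs 4 and 5 and the other runs was -0.56, and that of 12646 protein-coding genes was 0.03. Cox6b1, a subunit at the contact between the monomers of the complex IV dimer, was most affected: it had 46.5 to 88.0 CPM in the 12 libraries of runs 4 and 5, with a median of 64.5, and 182 to 403 CPM in the other 22, with a median of 280. These ranges do not overlap, in any genotype. Cox4i1 had 97.1 to 201 CPM in runs 4 and 5 and 211 to 402 CPM elsewhere, and Uqcrq, the small ubiquinone-binding subunit of complex III, 24.2 to 49.5 CPM in runs 4 and 5 and 57.6 to 127 CPM elsewhere, again with no overlap.

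Not every member followed. Sdha had 629 to 1416 CPM in runs 4 and 5 and 593 to 1270 CPM elsewhere, with a difference of 0.04 on the log2 scale and an adjusted p of 0.86 among runs. Cyc1 (0.05, adjusted p = 0.78) and Atp5c1 (-0.03, adjusted p = 0.80) likewise did not pass the test. A few members went the other way, among them Uqcrc2 (0.38, adjusted p = 0.0019) and Atp5f1, a subunit of the peripheral stalk of ATP synthase (0.28, adjusted p = 0.005). Members with longer transcripts tended to lie higher in runs 4 and 5 (Spearman's rho 0.27 over the 45 members and 0.40 over the protein-coding genes, given as a description). The labels do not say what the runs are. The cause was not tested. The main counts below are therefore also given with the runs as a block, and within runs where both groups are present.

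**Figure D1:**
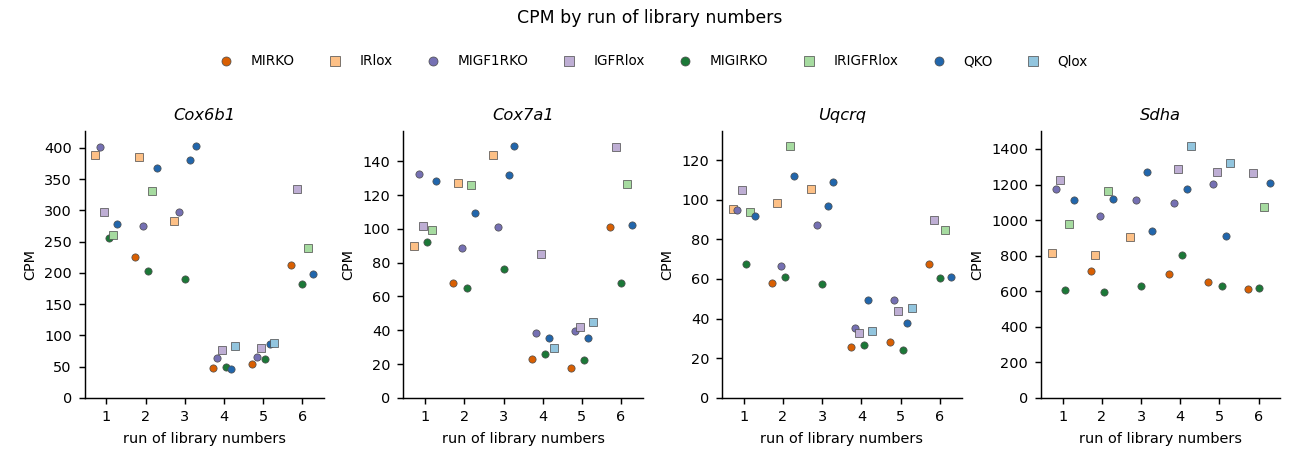
Level of 4 members in each library (CPM, linear axis) against the run of library numbers; colours and shapes mark the 8 groups. Cox6b1 and Uqcrq sit low in runs 4 and 5 in every group that has libraries there, and Cox6b1 has at most 88.0 CPM in them. Cox7a1 also sits low there except in IGFRlox 2 (84.9 CPM), and Sdha does not.

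MIGIRKO muscle had lower levels of many genes of complexes II, III and V than IRIGFRlox muscle, with fewer calls in complex IV. Of the 45 tested members, 22 were lower and 1 was higher at an adjusted p under 0.05, while 33.7% of all genes tested were called, 16.7% lower and 17.0% higher. The lower calls comprised 4 of 4 tested genes of complex II, 5 of 8 of complex III, 2 of 15 of complex IV and 10 of 17 of complex V, together with Cycs. For complex IV this is no more than the share of all genes called lower. The median log2 change was -0.66 over the members and 0.04 over all genes tested. In 26 members every MIGIRKO library lay below every IRIGFRlox library, and in 1 every MIGIRKO library lay above. On plain library totals, without the scaling factors, this held for 3 members below (Atp5a1, Atp5g2 and Atp5h) and 2 above (Cox6a1 and Cox8a). Counts of members without overlap, here and below, were not made over all genes tested. They have no background share and are a description.

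Complex II oxidises succinate to fumarate and hands the electrons to ubiquinone. Sdha (ENSMUSG00000021577, chromosome 13, 74322254 to 74350280, minus strand, GRCm38) had 593 to 801 CPM in MIGIRKO, with a median of 624, against 979, 1163 and 1072 CPM in IRIGFRlox. The groups do not overlap on this scale, and the log2 change was -0.73 ± 0.11 (edgeR, adjusted p = 1.5e-05). On plain totals they do, with 705 to 1056 CPM in MIGIRKO and 847 to 1018 CPM in IRIGFRlox. Sdhc, which helps anchor the enzyme in the membrane, had 100 to 169 CPM in MIGIRKO and 239, 220 and 246 CPM in IRIGFRlox, a log2 change of -0.79 ± 0.19 (edgeR, adjusted p = 0.0021). The iron-sulfur subunit gene Sdhb (-0.70 ± 0.22) and the second anchor gene Sdhd (-0.43 ± 0.13) were called lower as well.

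In complex III the redox subunits were both called. Cyc1 (ENSMUSG00000022551, chromosome 15, 76343523 to 76346260, plus strand) had 203 to 265 CPM in MIGIRKO, with a median of 227, and 366, 480 and 461 CPM in IRIGFRlox. Every MIGIRKO library lay below the lowest of IRIGFRlox, and the log2 change was -0.91 ± 0.18 (edgeR, adjusted p = 0.00021). Uqcrfs1, the Rieske iron-sulfur protein, had a log2 change of -0.76 ± 0.18 (edgeR, adjusted p = 0.0018). Among the 5 small subunits without redox centres, Uqcr10, Uqcr11 and Uqcrq were called, by -0.82 to -1.04, and Uqcrb (-0.40 ± 0.35) and Uqcrh (-0.35 ± 0.24) were not. Uqcrc2 had -0.54 ± 0.23 (adjusted p = 0.067).

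Complex IV reduces oxygen, and here its nuclear genes parted. Cox5a (ENSMUSG00000000088, chromosome 9, 57521274 to 57532426, plus strand), a subunit on the matrix side, had 102 to 153 CPM in MIGIRKO and 201, 324 and 244 CPM in IRIGFRlox. All MIGIRKO libraries were the lower ones, and the log2 change was -0.93 ± 0.18 (edgeR, adjusted p = 0.00021). Cox5b, the zinc-binding subunit next to it, had 31.8 to 57.0 CPM in MIGIRKO and 65.2, 93.6 and 76.4 CPM in IRIGFRlox (-0.88 ± 0.20, edgeR adjusted p = 0.0012). None of the other 13 tested genes of complex IV was called lower, and 3 of them, Cox7a1, Cox8b and Cox6b1, had SEs of 0.51 to 0.71 on the log2 scale. These 3 are also the genes that differed most between runs 4 and 5 and the rest.

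Cox6a1 was the member that went up. It codes for the common isoform of subunit 6a, and Cox6a2 for the isoform of heart and skeletal muscle. Cox6a1 (ENSMUSG00000041697, chromosome 5, 115345642 to 115348981, minus strand) had 53.0, 32.5, 32.6, 29.6, 31.1 and 44.7 CPM in MIGIRKO 1 to 6, against 15.3, 20.7 and 25.2 CPM in IRIGFRlox. The lowest MIGIRKO library was above the highest IRIGFRlox library, and the log2 change was 0.87 ± 0.24 (edgeR, adjusted p = 0.0057). Without IRIGFRlox 1 the call was lost (0.70, adjusted p = 0.063). Cox6a2 had 190 to 405 CPM in MIGIRKO and 593, 458 and 409 CPM in IRIGFRlox, and its change of -0.75 ± 0.32 did not pass (adjusted p = 0.067). Shares of isoforms are of CPM per kb, that is CPM divided by transcript length. Of both genes, Cox6a1 made up 8.71% to 16.9% in MIGIRKO, with a median of 14.2%. In IRIGFRlox it made up 2.98% to 6.84%, with a median of 5.10%.

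The other pairs of isoforms were less clear-cut. Cox8a, the common isoform of subunit 8, had 7.36 to 16.6 CPM in MIGIRKO and 9.77, 5.74 and 4.71 CPM in IRIGFRlox, with overlapping libraries and a log2 change of 0.72 ± 0.30 (adjusted p = 0.067). It was called with runs as a block (0.95, adjusted p = 0.0018). Its share of the CPM per kb of Cox8a and the muscle isoform Cox8b was 20.0% to 51.4% in MIGIRKO, against 6.69% to 11.9% in IRIGFRlox. The 2 highest MIGIRKO shares, 44.3% and 51.4%, are those of the libraries of runs 4 and 5. Cox7a2 is the common isoform of subunit 7a. Of the CPM per kb of Cox7a2 and the muscle isoform Cox7a1, it made up 26.6% to 40.1% in MIGIRKO and 22.1% to 27.6% in IRIGFRlox. Cox4i2 made up little of the CPM per kb of Cox4i1 and Cox4i2 in both groups, 0.605% to 2.14% in MIGIRKO and 0.446% to 0.970% in IRIGFRlox.

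ATP synthase consists of a catalytic F1 head, a rotating ring of c subunits, a peripheral stalk and small membrane subunits. In the head, 4 of 5 genes were called lower in MIGIRKO. Atp5a1 had 952 to 1418 CPM in MIGIRKO, with a median of 1146, and 2060, 2473 and 1996 CPM in IRIGFRlox, so that no library of the groups overlapped. Its log2 change was -0.93 ± 0.16 (edgeR, adjusted p = 6.0e-05). Atp5b had 1877 to 2658 CPM in MIGIRKO and 3396, 3649 and 3157 CPM in IRIGFRlox (-0.60 ± 0.14, edgeR adjusted p = 0.0014), and Atp5c1 had -0.59 ± 0.13 (edgeR, adjusted p = 0.00063). The 3 genes that code for the same mature c subunit, Atp5g1 (-0.89 ± 0.22), Atp5g2 (-0.76 ± 0.20) and Atp5g3 (-0.44 ± 0.14), were all called. In the peripheral stalk, Atp5h (-0.89 ± 0.24) and Atp5j (-0.83 ± 0.27) were called, and Atp5f1 (-0.38 ± 0.21) and Atp5o (-0.60 ± 0.41) were not. The 4 small membrane subunits tested had changes of -0.31 to -0.66, and none of them passed the test.

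**Figure D2:**
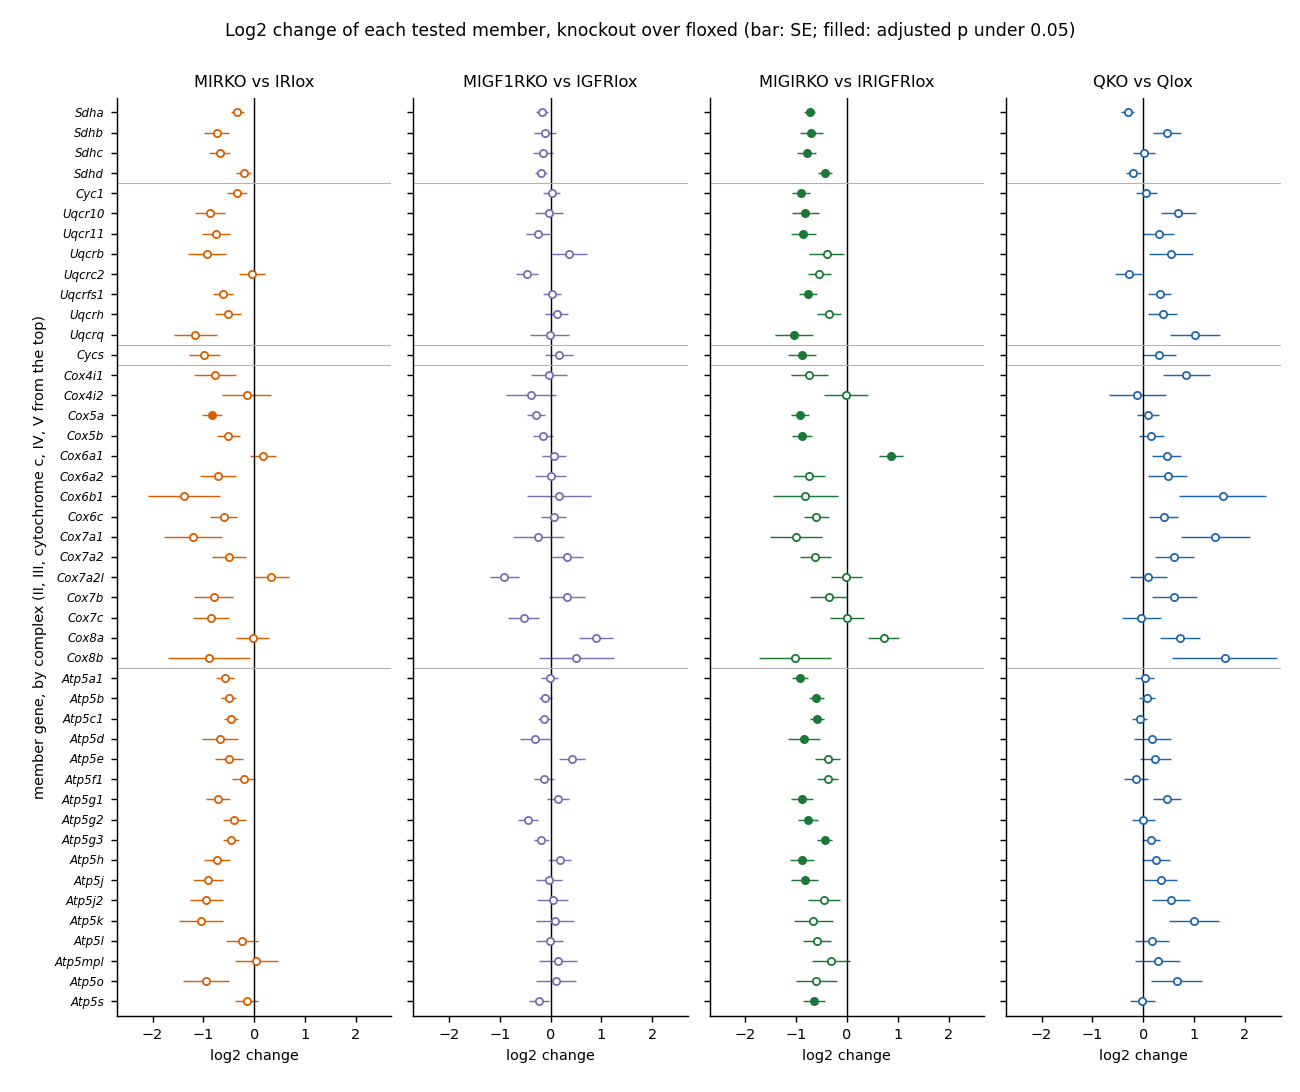
Log2 change of each of the 45 tested members in the 4 knockouts over their own floxed controls, with its SE as a bar; filled circles have an adjusted p under 0.05. In MIGIRKO 22 members are filled to the left of 0 and Cox6a1 to the right, MIRKO has 1 filled member, and MIGF1RKO and QKO have none.

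The direction of these changes in MIGIRKO held within runs. Runs 1, 2 and 6 each hold 1 MIGIRKO and 1 IRIGFRlox library, and 36 of 45 members were lower in MIGIRKO in all 3 runs, against 26.5% of all genes tested. With the runs as a block, 28 members were called lower and 2 higher, against 17.5% and 16.6% of all genes (34.2% in all), and all 22 earlier lower calls were among the 28. The 6 added were Atp5f1, Atp5l, Cox4i1, Cox6c, Cox7a1 and Uqcrc2. Without the libraries labelled MIRKO 4 and MIGIRKO 6, 22 were lower and 1 was higher, and 21 of the lower calls were the same. The share of all genes called in that fit is not given. Scaling mattered more: with library totals alone, the median of all genes tested moved to 0.53 and the members' median to -0.19, and only Atp5a1, Cox5a and Cyc1 were called lower and Cox6a1 and Cox8a higher. In that fit 51.3% of all genes were called, 5.04% lower and 46.3% higher. Of the 22, Atp5g3 (0.05) and Sdhd (0.07) had values above 0 there, and the other 20 kept a negative sign.

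The 34 libraries are of whole muscle, and a smaller share of muscle fibers and less RNA per fiber cannot be told apart. The muscle markers Mb, Ttn, Ckm and 1 other of 7 were lower in MIGIRKO, with the summed level of the list at 39700 to 60870 CPM, against 90150 to 94760 CPM in IRIGFRlox. Adipocyte markers were higher for 7 of 8 genes, at 585 to 1864 CPM summed in MIGIRKO, against 390 to 749 CPM in IRIGFRlox. Macrophage markers were higher for 8 of 9 genes, at 385 to 1223 CPM in MIGIRKO, against 125 to 182 CPM in IRIGFRlox. Fibroblast markers were higher for 6 of 8, at 4797 to 8630 CPM in MIGIRKO, against 2688 to 5939 CPM in IRIGFRlox, and Schwann cell markers for 6 of 8, at 401 to 749 CPM in MIGIRKO, against 202 to 303 CPM in IRIGFRlox. Endothelial markers were lower for 1 of 8, smooth muscle markers higher for 2 of 4, and erythroid markers called for 0 of 5. These counts are to be read against the 16.7% of all genes called lower and 17.0% called higher. Marker sums, here and below, are on scaled totals, and none on plain totals is given. None of the markers was at 0 throughout a group. The part of these shifts in the members' changes was not tested.

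Promoter sequences were available for 35 of the 49 members from RefSeq (GRCm38.p6), matched by symbol, each with 250 bases before the start and 50 after. The sequences shown are the 250 bases before the start, in the direction of transcription, with motif letters in capitals. Sdha and Cox5a are shown as genes with low levels in MIGIRKO, Atp5h as such a gene with a match, Cox6a1 as the gene that went up, and Cox7a2 as the only member with the FoxO motif, since QKO lacks 3 FoxO genes.
Sdha, chr13:74350241-74350490, minus strand: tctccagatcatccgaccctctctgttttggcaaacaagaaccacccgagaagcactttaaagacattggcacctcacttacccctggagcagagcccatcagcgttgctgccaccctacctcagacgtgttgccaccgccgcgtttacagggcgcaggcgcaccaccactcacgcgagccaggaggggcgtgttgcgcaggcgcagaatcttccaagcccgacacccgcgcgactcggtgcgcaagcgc
Cox5a, chr9:57520982-57521231, plus strand: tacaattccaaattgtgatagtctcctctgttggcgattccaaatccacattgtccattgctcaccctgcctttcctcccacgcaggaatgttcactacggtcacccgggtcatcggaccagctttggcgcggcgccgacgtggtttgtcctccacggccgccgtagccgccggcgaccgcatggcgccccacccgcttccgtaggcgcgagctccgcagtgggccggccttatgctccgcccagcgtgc
Atp5h, chr11:115419920-115420169, minus strand: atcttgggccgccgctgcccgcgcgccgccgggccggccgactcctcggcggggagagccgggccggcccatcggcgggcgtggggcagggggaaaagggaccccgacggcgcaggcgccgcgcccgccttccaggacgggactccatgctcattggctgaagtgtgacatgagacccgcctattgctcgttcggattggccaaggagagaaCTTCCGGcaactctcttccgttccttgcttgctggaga
Cox6a1, chr5:115348959-115349208, minus strand: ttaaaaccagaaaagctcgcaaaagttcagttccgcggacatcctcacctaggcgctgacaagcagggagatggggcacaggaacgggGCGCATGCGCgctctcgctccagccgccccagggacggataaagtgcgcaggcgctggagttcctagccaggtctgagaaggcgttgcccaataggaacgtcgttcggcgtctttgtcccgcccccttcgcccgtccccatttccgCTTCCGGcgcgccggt
Cox7a2, chr9:79759854-79760103, minus strand: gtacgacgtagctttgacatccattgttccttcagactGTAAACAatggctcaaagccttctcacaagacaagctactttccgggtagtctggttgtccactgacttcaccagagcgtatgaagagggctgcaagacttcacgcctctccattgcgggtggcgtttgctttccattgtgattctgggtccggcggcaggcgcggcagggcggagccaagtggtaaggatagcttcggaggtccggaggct

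The motifs were searched on both strands over the 300 bases. The palindromic site of NRF1, a regulator of respiratory genes, whose letters are the first capitals in Cox6a1, occurred in 4 of 35 members (11.4%), in 2% of the 10296 promoters of genes tested here and in 0.977% of all 27025 promoters of that length. CCGGAAG, the core of ETS factor sites, occurred in 11 of 35 members (31.4%), in 17.4% of tested genes and in 9.12% of all promoters. AAGGTCA, the core site of estrogen-related receptors, occurred in 5 members (14.3%), namely Sdhd, Atp5e, Atp5g3, Atp5k and Atp5l, in 3.2% of tested genes and in 4.66% of all promoters. AAGATGGC, a YY1 site, was in Atp5j2 (2.86%, against 4.63% of tested genes and 2.88% of all), and GTAAACA, a FoxO site, in Cox7a2 (2.86%, against 2.45% of tested genes and 3.55% of all). In Cox6a1 the capitals mark the NRF1 and the ETS letters, in Atp5h the ETS letters and in Cox7a2 the FoxO letters, while Sdha and Cox5a held none of the 5 motifs. These motifs share no letters with each other in the printed windows. A match is a description of letters and was not tested for binding.

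Genes that build, feed or empty the complexes were followed as lists. Of all genes tested, 16.7% were lower and 17.0% higher in MIGIRKO than in IRIGFRlox, and a share of a list near these is not a result about the list. In MIGIRKO, 4 of 6 complex III assembly factors, 11 of 23 tested complex IV assembly factors, 2 of 4 for complex V and 1 of 4 for complex II were lower, and none was higher. Taco1, a translational activator of the mitochondrial Co1 mRNA, had 28.5 to 46.8 CPM in MIGIRKO and 92.7, 85.5 and 76.8 CPM in IRIGFRlox, a log2 change of -1.16 ± 0.15 (edgeR, adjusted p = 1.9e-06). Coenzyme Q synthesis had 7 of 13 genes lower and 1 higher, with Coq9 at -1.19 ± 0.15, and all 7 genes of ATP export and energy transfer were called, 6 of them lower, with the outer membrane channel gene Vdac1 at -1.23 ± 0.15. Of the 6 mitochondrial mRNAs of complexes III to V, mt-Co1 (-0.82 ± 0.22) and mt-Cytb (-0.88 ± 0.24) were called lower, and the other 4 had SEs of 0.69 to 1.12. Among 13 regulators of oxidative genes, 3 were lower: Esrrb (-2.22 ± 0.34) and Esrra (-1.03 ± 0.18), which code for estrogen-related receptors, and Tfb2m, a mitochondrial transcription factor (-0.75 ± 0.16). All 10 genes of the denervation list were higher, with Myog at 3.27 ± 0.47, and 6 of 8 fast fiber genes and 2 of 7 slow fiber genes were lower.

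**Figure D3:**
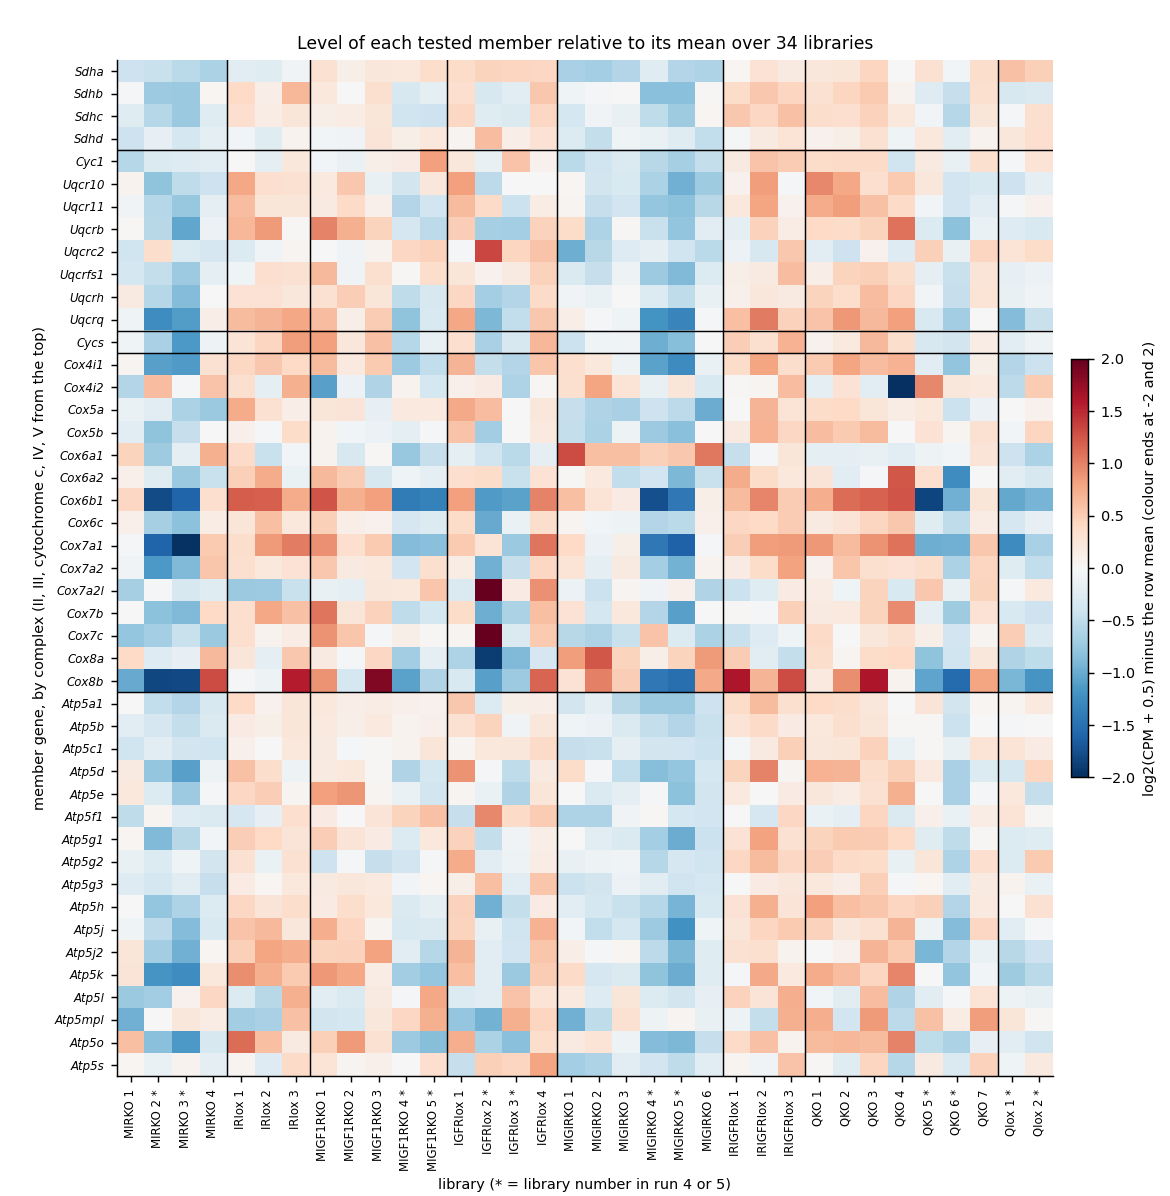
Level of each of the 45 tested members in each of the 34 libraries, as log2(CPM + 0.5) minus the mean of the row, with genes by complex from top to bottom and groups from left to right, each knockout left of its floxed controls; an asterisk marks libraries of runs 4 and 5. MIGIRKO columns are blue for most rows and red for Cox6a1 and most of Cox8a. The asterisked columns are blue for Cox6b1 and Uqcrq in every group that has such columns.

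In the single knockouts, the list genes called were these: in MIRKO 4 of 10 denervation genes were higher and 2 complex IV assembly factors, 2 energy transfer genes, 1 coenzyme Q gene and 1 muscle marker were lower, in MIGF1RKO 1 denervation gene was higher, and all other lists had no call. No list had a call in QKO against Qlox. The shares of all genes called were 1.25% in MIRKO (0.865% lower and 0.381% higher), 0.616% in MIGF1RKO and 0.506% in QKO.

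In MIRKO muscle, which lacks the insulin receptor alone, 1 member was called lower and none higher, while 1.25% of all genes tested were called, 0.865% lower and 0.381% higher. That member was Cox5a, with 184, 175, 130 and 121 CPM in MIRKO 1 to 4 and 340, 250 and 223 CPM in IRlox 1 to 3. The groups do not overlap, and the log2 change was -0.83 ± 0.20 (edgeR, adjusted p = 0.035). The median change of the members was -0.62, against 0.03 for all genes, and 24 members had an unadjusted p under 0.05. In 24 members every MIRKO library lay below every IRlox library, and on plain totals in 8, Cox5a among them. These counts, and all counts at an unadjusted p here and below, have no share of all genes tested beside them. They are a description and not a result about the members. MIRKO has 2 of its 4 libraries in runs 4 and 5 and IRlox has none there. With the runs as a block no member was called, against 0.542% of all genes (median -0.38, 22 members at an unadjusted p under 0.05, Cox5a -0.72 with an adjusted p of 0.057). DESeq2 called 4 members in the unblocked design, with no share of all genes given for it.

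Run 2 is the only run with both groups, and MIRKO 1 was below IRlox 2 for 40 of 45 members in it, against 6819 of the 13646 genes tested. Without the libraries labelled MIRKO 4 and MIGIRKO 6 no member was called, with a median of -0.73 and 28 members at an unadjusted p under 0.05. With all 12 floxed libraries as control 17 members were lower, Cox5a among them, but the share of all genes called in that fit is not given. Against IRlox, Sdha had 713, 695, 651 and 612 CPM in MIRKO and 813, 804 and 904 CPM in IRlox, with no overlap and a log2 change of -0.33 ± 0.13 that did not pass (adjusted p = 0.17). Atp5b (-0.50 ± 0.15, adjusted p = 0.085) and Sdhc (-0.68 ± 0.21, adjusted p = 0.095) came closest to the threshold after Cox5a. The level of Cox6a1 in MIRKO was 28.9, 12.8, 18.4 and 35.1 CPM, against 27.7, 15.4 and 20.4 CPM in IRlox, with full overlap and a change of 0.17 ± 0.26.

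Markers of cell types also differed in level between these groups. Muscle markers summed to 50020 to 83710 CPM in MIRKO, against 91170 to 102500 CPM in IRlox. Macrophage markers summed to 396 to 1031 CPM in MIRKO, against 238 to 307 CPM in IRlox, with 9 of 9 genes above 0 in log2 change, a median of 1.01 and none called. Endothelial markers summed to 415 to 512 CPM in MIRKO, against 566 to 611 CPM in IRlox, and erythroid markers to 23.7 to 50.7 CPM in MIRKO, against 56.1 to 60.3 CPM in IRlox. These 4 sums do not overlap between the groups, and those of adipocyte, Schwann cell, fibroblast and smooth muscle markers do. Their part in the members' values was not tested.

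The difference between the MIGIRKO and the MIRKO change was not called for any member or for any of the 13646 genes tested, and 0.00% is the background there. By edgeR 2 members had an unadjusted p under 0.05, Sdha with a difference of -0.40 ± 0.17 and Cyc1 with -0.57 ± 0.27, and DESeq2 called none. Cox6a1 had a difference of 0.70 ± 0.35 (adjusted p = 0.49).

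MIGF1RKO muscle, which lacks the IGF-1 receptor alone, had no member called, against 0.616% of all genes tested, and a median change of -0.02 over the members. By edgeR 4 members had an unadjusted p under 0.05, and DESeq2, limma-voom and the fit with runs as a block also called none. Cox7a2l, a factor that joins complexes III and IV into supercomplexes, had 117, 113, 151, 149 and 189 CPM in MIGF1RKO 1 to 5 and 105, 584, 145 and 243 CPM in IGFRlox 1 to 4. The groups overlap, the log2 change was -0.91 ± 0.29 (adjusted p = 0.18), and without IGFRlox 1 it was -1.17 (adjusted p = 0.032). IGFRlox 2 stood apart for this gene and also for Cox7c, with 487 CPM there, against 96.3 to 170 CPM in the other IGFRlox libraries, and for Uqcrc2, with 1664 CPM, against 643 to 979 CPM.

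The next 2 by p were Cox8a (0.89 ± 0.33, adjusted p = 0.27) and Atp5g2 (-0.45 ± 0.20, adjusted p = 0.40). Sdha had 1174, 1024, 1114, 1098 and 1203 CPM in MIGF1RKO and 1223, 1289, 1272 and 1264 CPM in IGFRlox. It was the 1 member in which the MIGF1RKO libraries all lay below those of IGFRlox, and on plain totals there was none. In the runs that hold both groups, 3 members were lower and 9 higher in all 3 runs, where 15.7% of all genes went each way. Summed over all members, MIGF1RKO had 12900 to 15910 CPM and IGFRlox 12950 to 16600 CPM.

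QKO muscle, which lacks the 3 FoxO genes besides both receptors, had no member called against Qlox, while 0.506% of all genes tested were called. By edgeR 3 members had an unadjusted p under 0.05, and DESeq2 called none either. The members' median was 0.30 and that of all genes 0.04. Both Qlox libraries are of runs 4 and 5, however, and with the runs as a block the median was -0.07. Among the libraries of runs 4 and 5 alone, 2 QKO against 2 Qlox, it was -0.13, with no member called. Each of these runs holds 1 library of either group: in run 4 the median member had a log2 ratio of 0.10 in QKO over Qlox, with 18 of 45 below 0, and in run 5 of -0.33, with 41 of 45 below 0. In both runs 16 members were lower and 2 higher, against 26.7% and 24.2% of all genes tested. Cox7a1 turned round between these fits: it had 35.6 to 149 CPM in QKO, with a median of 110, and 29.2 and 44.7 CPM in Qlox, a change of 1.42 ± 0.68 (adjusted p = 0.42), but 0.05 with the block and -0.06 within runs 4 and 5.

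The QKO library of run 5, QKO 6, stood apart. Its macrophage markers summed to 2692 CPM, against 212 to 593 CPM in the other 6 QKO libraries, with Lyz2, the lysozyme gene of macrophages, at 2072 CPM, against 115 to 405 CPM. It also had the lowest sum of members in QKO, 9987 CPM. Without QKO 6 no member was called against Qlox, and the median was 0.39. The part of these markers in its values was not tested.

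Sdha, which did not follow the runs, had 910 to 1270 CPM in QKO, with a median of 1118, and 1416 and 1322 CPM in Qlox. The QKO libraries all lay below both Qlox libraries, and the log2 change was -0.31 ± 0.13 (adjusted p = 0.36). Cox6a1 had 18.1 to 25.5 CPM in QKO and 15.8 and 13.5 CPM in Qlox, with the QKO libraries above both, and a change of 0.46 ± 0.29 (adjusted p = 0.56). Of the CPM per kb of Cox6a1 and Cox6a2 it made up 2.48% to 13.9% in QKO, with a median of 6.09%, and 5.36% and 5.79% in Qlox. With 2 control libraries, changes such as these have wide errors, and a missed threshold does not show that QKO and Qlox have equal levels.

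The change in QKO was set against the change in MIGIRKO to ask whether the loss of FoxO genes alters the response of the complexes. The QKO change exceeded the MIGIRKO change in 9 members, with none the other way, against 5.76% of all genes called, 3.61% in that direction and 2.15% in the other. They were Atp5g1 (1.36 ± 0.35), Uqcrfs1 (1.08 ± 0.29), Atp5a1 (0.96 ± 0.25), Cox5a (1.02 ± 0.29), Cyc1 (0.97 ± 0.28), Uqcr10 (1.5 ± 0.44), Sdhb (1.17 ± 0.36), Cox5b (1.04 ± 0.32) and Uqcrq (2.05 ± 0.63). This contrast sets Qlox, all of runs 4 and 5, against IRIGFRlox, none of which is, so the run difference enters it in full. With the runs as a block 2 of the 9 were called, against 3.95% of all genes called and 2.48% in that direction: Cox5a (0.96, adjusted p = 0.033) and Cyc1 (1.04, adjusted p = 0.045). Without Qlox 1 or without Qlox 2 no member was called, and without QKO 6 there were 18, all in the same direction. The share of all genes called in these fits is not given.

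QKO and MIGIRKO libraries are both present in all 6 runs, and a direct comparison of the 2 groups, added after the run difference was seen, does not rest on the Qlox or IRIGFRlox libraries. In QKO, 19 of 45 members were higher than in MIGIRKO and 2 were lower, against 16.2% and 14.0% of all genes tested (30.2% in all). The median log2 difference was 0.50 over the members and -0.03 over all genes. QKO and MIGIRKO come from separate colonies, and in this comparison colony and FoxO genotype cannot be told apart. It shares the MIGIRKO libraries with the comparison to IRIGFRlox, so the values of the 2 comparisons are not independent.

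The member with the smallest adjusted p was again in complex II. Sdha, at 910 to 1270 CPM in QKO and 593 to 801 CPM in MIGIRKO with no overlap (on plain totals they overlap), was higher by 0.77 ± 0.09 (edgeR, adjusted p = 2.2e-07). Its floxed controls differed in the same direction, with 1322 and 1416 CPM in Qlox and 979 to 1163 CPM in IRIGFRlox. For Sdha the QKO change minus the MIGIRKO change was 0.42 and was not called. In complex III, Cyc1 had 246 to 423 CPM in QKO, with a median of 402, and 203 to 265 CPM in MIGIRKO, with a median of 227, a difference of 0.67 ± 0.14 (edgeR, adjusted p = 0.00065). Here the lowest QKO library falls among those of MIGIRKO. Uqcrfs1 (0.62 ± 0.15), Uqcr11 (0.80 ± 0.20), Uqcr10 (0.84 ± 0.23) and Uqcrc2 (0.49 ± 0.19) were the other 4 of that complex.

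In complex IV, Cox5a had 150 to 266 CPM in QKO, with a median of 235, and 102 to 153 CPM in MIGIRKO, with a median of 138, a difference of 0.73 ± 0.15 (edgeR, adjusted p = 0.00031). Cox5b was higher by 0.81 ± 0.17 (edgeR, adjusted p = 0.00038). Cox6a1, with 18.1 to 25.5 CPM in QKO and 29.6 to 53.0 CPM in MIGIRKO and no overlap, had a log2 difference of -0.89 ± 0.19 (edgeR, adjusted p = 0.00043). Cox8a was lower too (-0.62 ± 0.24, edgeR adjusted p = 0.049), but not without the libraries labelled MIRKO 4 and MIGIRKO 6 (-0.58, adjusted p = 0.071). In complex V, 9 of 17 genes were higher, among them Atp5h (0.86 ± 0.19), Atp5a1 (0.64 ± 0.13), Atp5c1 (0.52 ± 0.10) and Atp5g3 (0.43 ± 0.11).

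**Figure D4:**
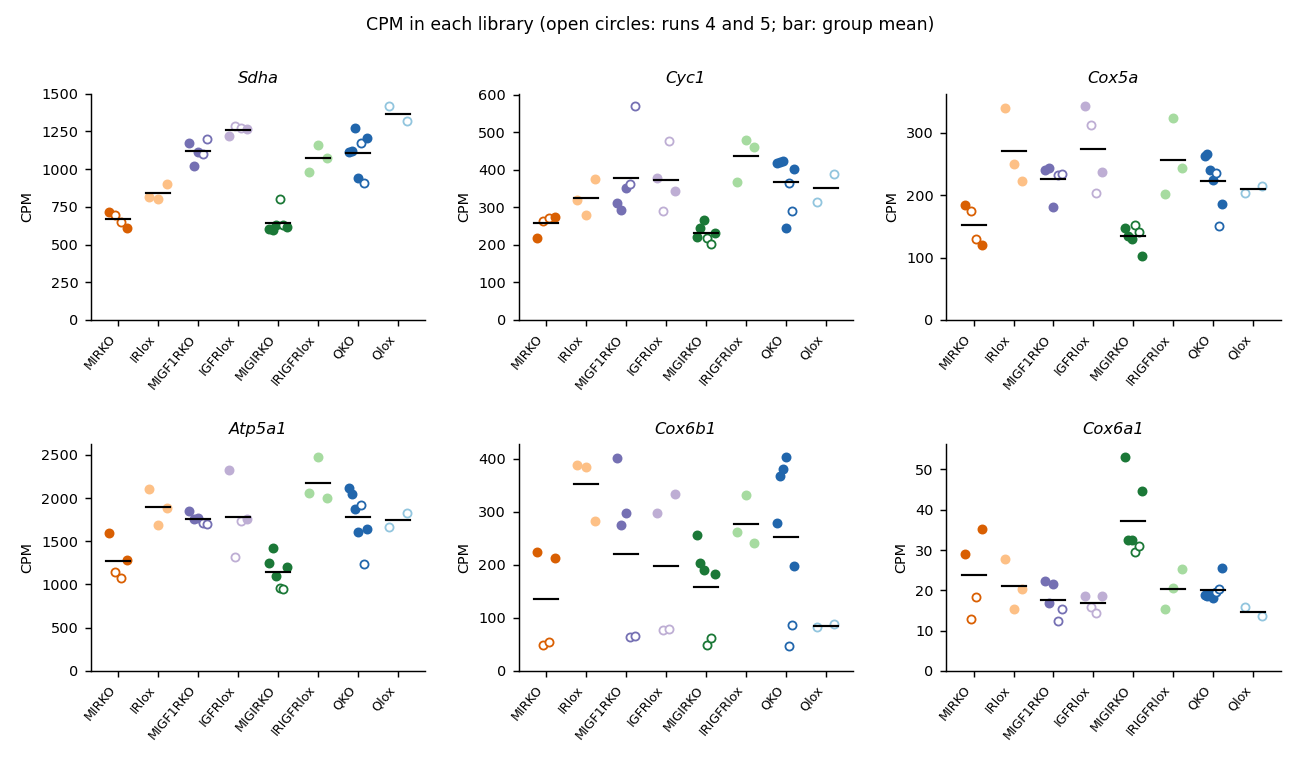
CPM of 6 members in every library by group, each knockout left of its floxed controls, on linear axes from 0; open circles are libraries of runs 4 and 5 and bars are group means. Sdha, Cyc1, Cox5a and Atp5a1 are low in MIGIRKO, and Cox6a1 is high there (29.6 to 53.0 CPM). Cox6b1 separates by run in each group that has libraries both in and outside runs 4 and 5.

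Within runs, 30 of 45 members were higher in QKO than in MIGIRKO in all 6 runs and 2 were lower in all 6, against 14.8% and 12.4% of all genes tested. The 6 ratios of Sdha on the log2 scale were 0.88, 0.91, 0.79, 0.55, 0.53 and 0.96 in runs 1 to 6, and those of Cox6a1 were -1.48, -0.80, -0.80, -0.58, -0.60 and -0.79. The median member had a log2 ratio between 0.23 (run 5) and 0.55 (run 4). With the runs as a block 32 members were higher and 2 lower, against 18.1% and 15.8% of all genes (33.9% in all), and the 19 and 2 found before were among them. With library totals alone 4 members were higher and 2 lower, and the median of all genes moved to -0.41, with 48.7% of all genes called, 5.53% higher and 43.2% lower. Sdha, Cox5a, Cox5b and Atp5h were higher and Cox6a1 and Cox8a lower under both scalings, and Atp5b (-0.01) and Sdhd (-0.05) turned sign. Without the libraries labelled MIRKO 4 and MIGIRKO 6, 18 members were higher and 1, Cox6a1, was lower, with no share of all genes given. Of the higher calls 17 were shared, and the lower call of Cox8a was lost. Without QKO 6, 27 were higher and 1 was lower, with no share of all genes given for that fit.

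**Figure D5:**
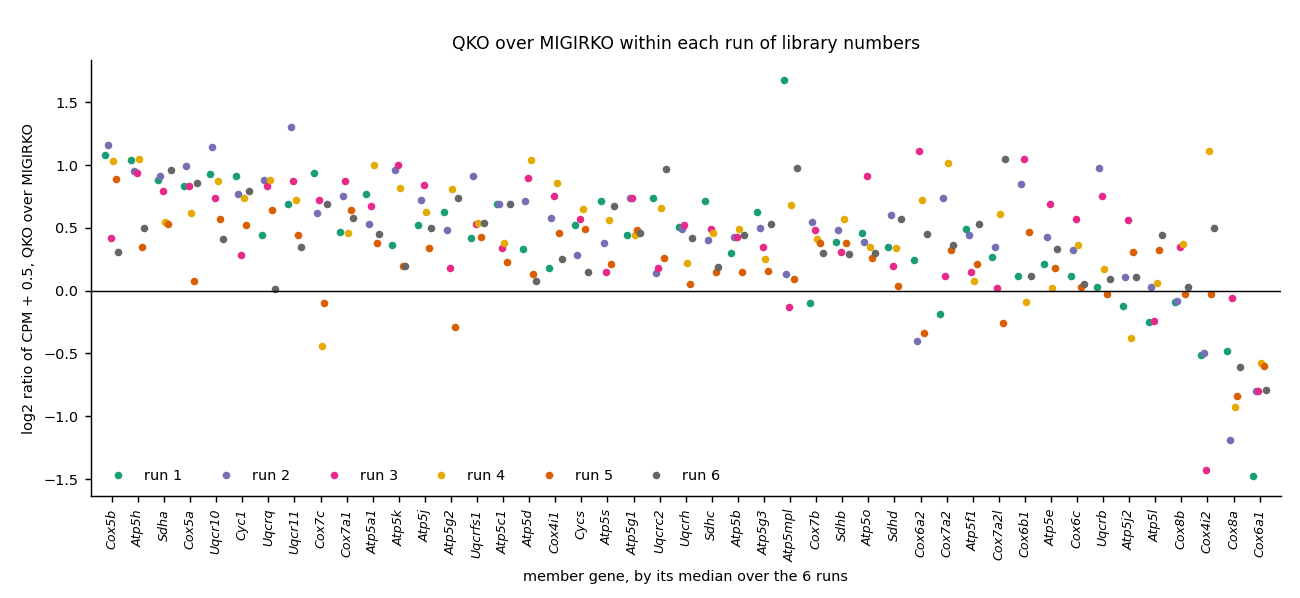
Log2 ratio of CPM + 0.5 in QKO over MIGIRKO within each of the 6 runs of library numbers, for the 45 tested members ordered by their median. For 30 members all 6 points are above 0, and for Cox6a1 and Cox8a, at the right, all 6 are below.

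Among the lists, to be read against the 16.2% of all genes that were higher and 14.0% that were lower, assembly factors were higher in QKO for 1 of 4 genes of complex II, 4 of 6 of complex III, 9 of 23 tested of complex IV (1 lower) and 1 of 4 of complex V. Taco1 was higher by 0.86 ± 0.13 and Lrpprc, which stabilises mitochondrial mRNAs, by 0.66 ± 0.11. Coenzyme Q synthesis had 6 of 13 higher and 1 lower, and ATP export and energy transfer 6 of 7 higher. The regulators Esrrb (2.31 ± 0.30), Tfb2m (0.57 ± 0.14) and Esrra (0.60 ± 0.15) were higher. Of the mitochondrial mRNAs, mt-Cytb (0.73 ± 0.19) and mt-Co1 (0.59 ± 0.18) were higher.

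Markers of other cells differed here too. Their called counts are also to be read against the 16.2% of all genes that were higher and 14.0% that were lower. Adipocyte markers were lower in QKO for 7 of 8 genes, at 377 to 918 CPM summed, against 585 to 1864 CPM in MIGIRKO. Muscle markers were higher for 6 of 7 (59150 to 106700 CPM summed in QKO, against 39700 to 60870 CPM in MIGIRKO), fibroblast markers lower for 5 of 8, Schwann cell markers lower for 5 of 8, smooth muscle markers lower for 2 of 4, and macrophage, endothelial and erythroid markers were called for none. Macrophage markers summed to 212 to 2692 CPM in QKO, the highest in QKO 6, against 385 to 1223 CPM in MIGIRKO. Slow fiber genes were higher for 6 of 7 and fast fiber genes for 5 of 8, with 1 lower, and 7 of 10 denervation genes were lower. Their part in the members' differences was not tested.

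Summed over the members of a complex, MIGIRKO lay below IRIGFRlox in all 4 complexes on scaled totals. Complex II summed to 1125 to 1333 CPM in MIGIRKO, against 1871 to 2131 CPM in IRIGFRlox. Complex III summed to 1228 to 1646 CPM in MIGIRKO, against 1974 to 2535 CPM in IRIGFRlox. Complex IV summed to 1001 to 1784 CPM in MIGIRKO, against 2122 to 2343 CPM in IRIGFRlox, and complex V to 5053 to 6640 CPM in MIGIRKO, against 8928 to 10040 CPM in IRIGFRlox. All members together took 8428 to 11140 CPM in MIGIRKO and 14950 to 16840 CPM in IRIGFRlox. On plain totals the ranges overlap in each complex, and all members together took 10750 to 13180 CPM in MIGIRKO and 12940 to 14750 CPM in IRIGFRlox. On scaled totals they took 8862 to 11610 CPM in MIRKO, against 14560 to 15340 CPM in IRlox. Plain totals gave 10420 to 13740 CPM in MIRKO and 13650 to 15000 CPM in IRlox, which overlap. In QKO they took 9987 to 16810 CPM on scaled totals, against 13260 and 13450 CPM in Qlox. On plain totals the range was 11250 to 14490 CPM in QKO and 11770 to 12330 CPM in Qlox. These sums are dominated by the abundant genes of complex V and are given as a description, with no test.

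The 4 floxed groups differed in 1 member, Sdha (edgeR, adjusted p = 0.044), against 0.264% of all genes tested. Its levels were 804 to 904 CPM in IRlox, 979 to 1163 CPM in IRIGFRlox, 1223 to 1289 CPM in IGFRlox and 1322 to 1416 CPM in Qlox, ranges that do not overlap. With the runs as a block the adjusted p was 0.13. QKO and MIGIRKO, compared directly above, belong to 2 of these colonies, and Qlox lay above IRIGFRlox for this gene.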

How the data were processed

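Whole-gene read counts were deposited by the authors as one table of raw counts, not normalized. Reads were aligned with STAR to GRCm38.p4 and counted with featureCounts, per the submitters' processing notes; versions, annotation and strand setting are not given in the sources used here. The kit is stranded, per the labels' protocols. Here, Ensembl IDs were matched to GENCODE M21 (45229 matched). Genes passing filterByExpr over the 8 groups (13646) were scaled by TMM and fitted in edgeR 4.0.16 (R 4.3.3) with 1 mean per group over all 34 libraries; the robust quasi-likelihood F test was adjusted by Benjamini-Hochberg over all of them and called at 0.05. SE is the log2 change divided by the root of F. CPM uses TMM-scaled totals. The text names, per comparison, up to 12 called members with the smallest adjusted p, or 3 where none is called, those called against the majority, isoform pairs, members that failed the filter, targeted genes and up to 3 genes of each list; others, such as those that show the run difference, were chosen after their values were seen. DESeq2 1.42.0, limma 3.58.1 (voom), other scalings and filters, library runs as a block and leaving out libraries were alternatives. The test was also run on simulated data with 200 changed genes. Those data held no run difference, so that run does not bear on it, and its outcome is not given here. Members and lists were chosen with earlier results of these data known. Closest replicate libraries differed beyond sampling noise, so none was merged.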

Additional observations from a re-analysis of the deposited data

Results flagged for a closer look

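Single libraries stood far from the rest of their group in 12 of 160 groups checked, where chance gives about 1 in 20 if groups are independent. They are not independent here, because the sums contain genes that were also checked singly. The 12 are therefore a description and are not set against chance. Among the knockouts, MIRKO 4 had 43.12 CPM of Cox8b, next to 8.328 in the nearest library, and MIRKO 1 had 217.7 CPM of Cyc1, next to 264.8. In MIGF1RKO, replicate 3 had 180.3 CPM of Cox5a, next to 231.9, and replicate 5 had 568.7 CPM of Cyc1, next to 362.9. In MIGIRKO, replicate 3 had 826.5 CPM of Atp5c1, next to 724.3, and replicate 4 had 800.8 CPM of Sdha, next to 629.9. QKO 7 had 25.52 CPM of Cox6a1, next to 20.33, and QKO 4 had 845.4 CPM of Cox6a2, next to 450.5. The complex III genes of QKO 6 summed to 1535 CPM, next to 2101. IGFRlox 3 had 261.4 CPM of Cox6a2, next to 432.2, its complex IV genes summed to 1295 CPM, next to 2261, and all its members to 12950 CPM, next to 16180.

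The QKO change exceeded the MIGIRKO change, by a test of the difference itself in edgeR, for Atp5g1 (1.36, adjusted p = 0.022), Uqcrfs1 (1.08, 0.024), Atp5a1 (0.96, 0.025), Cox5a (1.02, 0.031), Cyc1 (0.97, 0.035), Uqcr10 (1.5, 0.04), Sdhb (1.17, 0.045), Cox5b (1.04, 0.048) and Uqcrq (2.05, 0.048), all on the log2 scale. The run difference enters this contrast, and with runs as a block Cox5a and Cyc1 were called.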

How the results depend on the processing

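Counts of called members moved as follows, and the cause was not tested. Most of these fits have no share of all genes beside them, so their counts have no background. For MIRKO over IRlox (1) they were 4 by DESeq2, 17 with all 12 floxed libraries, 5 without QKO 5 and QKO 6, and 0 with library totals, with runs as a block, with the compared groups alone, without MIRKO 4 and MIGIRKO 6, and with both of the last changes; leaving out 1 library gave 0 to 2, and Cox5a was lost without IRlox 1, IRlox 2, MIRKO 3 or MIRKO 4. For MIGF1RKO (0) the range was 0 to 1. For MIGIRKO (23) library totals gave 5 and leaving out 1 library 18 to 24. For the QKO change minus the MIGIRKO change (9) they were 15 by DESeq2, 0 with totals, 5 without filter, 2 with the block, 4 with the compared groups alone, 21 without QKO 5 and QKO 6, 4 with the block and without MIRKO 4 and MIGIRKO 6, and 0 to 18 leaving out 1 library. For QKO over MIGIRKO (21) they were 6 with totals, 34 with the block, 1 with runs 4 and 5 only, and 16 to 28 leaving out 1. For the 4 floxed groups (1) they were 2 by DESeq2, with its size factors and without MIRKO 4 and MIGIRKO 6, 0 with totals, no filter, the block, the compared groups alone and the block without those libraries, and 0 to 2 leaving out 1. Cox7a1 in QKO over Qlox turned to -0.06 (adjusted p = 0.97) with runs 4 and 5 only. Among values of the members picked in each comparison by the naming rule, 970 kept direction and side of the threshold, 152 lost the call, 1 gained it and 1 turned. Members outside that pick also turned sign with library totals. These include Atp5g3 and Sdhd in MIGIRKO over IRIGFRlox, and Atp5b and Sdhd in QKO over MIGIRKO. No paired analysis was possible because replicate numbers were given in accession order and pair no libraries; the library runs, which several groups share, were used as a block instead.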
